A study of Mus musculus with 12 samples.

Results

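The genes that copy DNA were measured in islets of mice with and without the prolactin receptor, before and during pregnancy. They are 33 genes of DNA replication and S phase, taken from a list by gene symbol: the sliding clamp and its loader, the MCM helicase and the factors that load and activate it, the cyclins and the E2F factor of S-phase entry, the enzymes of nucleotide supply, the replicative polymerases with primase, replication protein A, and the enzymes that join Okazaki fragments. All 33 were found among the 19938 genes that have a probe set of their own on the array, a probe set being a group of probes summarised as 1 value. Where a gene had several such probe sets, the one with the highest mean over the 12 arrays was used, which mattered only for Pcna and Tk1.

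RNA came from pancreatic islets of 129Sv mice in 4 groups of 3 arrays: Prlr-/- mice on pregnancy day 9.5 (P9.5), Prlr+/+ mice at P9.5, non-pregnant (NP) Prlr-/- mice and NP Prlr+/+ mice. Prlr encodes the prolactin receptor, through which prolactin and placental lactogen act on beta cells, and the Prlr-/- mice lack it in every tissue. According to the methods, pregnant Prlr-/- mice received a progesterone pellet early in pregnancy because they are otherwise sterile, and no pellet is described for the other groups. At P9.5 genotype and pellet therefore cannot be told apart. Within Prlr-/- mice pregnancy and pellet cannot be told apart either. The difference in pregnancy response between genotypes shares this limit. The labels call the arrays biological replicates and do not say how many mice each holds.

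Before a cell copies its genome, Cdc6 and Cdt1 load the ring of Mcm2 to Mcm7 onto replication origins, and cyclin E with its kinase helps to fire them. Cdc45 and the GINS complex turn the ring into a moving helicase, primase and polymerase alpha start each strand, the clamp loader sets the Pcna ring around the DNA, and polymerases delta and epsilon extend the strands. Most of these genes are transcribed around S-phase entry under E2F factors, and islets in pregnancy are known for beta cell division.

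The promoter windows of the members are shown first. The genes were chosen by name and not by sequence. As most are known to be transcribed under E2F factors, a high share of E2F words could come with the choice. RefSeq windows of 300 bases, running from 250 bases before to 50 after the start site (build GRCm38.p6), were at hand for 27 of the 33 genes. Ccne2, Mcm4, Pole, Rfc2, Gins1 and Gins2 had none. The E2F words searched were TTTCCCGC, TTTGGCGC, TTTCGCGC and TTTGCCGC on both strands, and 10 of the 27 windows (37.0%) held at least 1, beside 2.33% of the windows of all 27025 genes and 2.94% of those of 17492 protein-coding genes. The 10 genes were Mcm3, Mcm5, Mcm6, Mcm7, Cdc6, Cdt1, Gins3, Rfc3, Pola1 and Pold1, so that 4 of the 5 helicase subunits with a window were among them. Of the 16 matches, counted with overlaps between words, 9 lay within 100 bases of the start site. The shorter word CCAAT stood in 16 of the 27 windows (59.3%), beside 38.0% of all windows. The words TTTGAA and TTCGAA, known from cell cycle promoters, stood in 6 of 27 (22.2%) and in 19.5% of all windows, and 1 E2F word overlapped a word of these other kinds. Of the 9 members with a window that were called at P9.5 in Prlr-/- islets, 4 (44.4%) held an E2F word, against 6 of the 18 others (33.3%). Of the 6 with a window that were called in Prlr+/+ islets 1 did (16.7%), against 9 of the 21 others (42.9%). The windows printed run 5′ to 3′ on the strand of the gene and have E2F words and CCAAT words in capitals: those of Pcna and Rrm1, which had the largest changes at P9.5 in Prlr-/- islets among members with a window, and those of the 4 genes with an E2F word that were called higher at P9.5 in Prlr-/- islets, of which only Pola1 was also called in Prlr+/+ islets.
Pcna: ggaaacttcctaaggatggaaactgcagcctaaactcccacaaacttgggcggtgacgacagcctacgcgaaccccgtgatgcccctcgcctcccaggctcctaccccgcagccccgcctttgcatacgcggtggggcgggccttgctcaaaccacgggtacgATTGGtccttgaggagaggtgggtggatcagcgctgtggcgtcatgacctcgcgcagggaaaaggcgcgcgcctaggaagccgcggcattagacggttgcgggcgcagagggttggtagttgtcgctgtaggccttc
Rrm1: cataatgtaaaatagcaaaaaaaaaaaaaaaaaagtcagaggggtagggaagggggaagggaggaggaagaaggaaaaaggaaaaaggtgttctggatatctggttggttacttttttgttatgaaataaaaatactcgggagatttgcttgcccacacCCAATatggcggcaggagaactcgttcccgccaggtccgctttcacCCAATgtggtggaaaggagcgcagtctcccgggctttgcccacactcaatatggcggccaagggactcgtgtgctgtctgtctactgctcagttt
Mcm6: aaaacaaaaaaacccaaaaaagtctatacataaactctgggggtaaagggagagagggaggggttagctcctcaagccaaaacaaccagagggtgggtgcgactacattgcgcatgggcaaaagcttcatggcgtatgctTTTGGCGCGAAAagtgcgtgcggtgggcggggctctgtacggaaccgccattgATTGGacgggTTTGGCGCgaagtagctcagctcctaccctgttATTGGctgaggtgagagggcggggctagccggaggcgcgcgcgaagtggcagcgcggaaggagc
Mcm3: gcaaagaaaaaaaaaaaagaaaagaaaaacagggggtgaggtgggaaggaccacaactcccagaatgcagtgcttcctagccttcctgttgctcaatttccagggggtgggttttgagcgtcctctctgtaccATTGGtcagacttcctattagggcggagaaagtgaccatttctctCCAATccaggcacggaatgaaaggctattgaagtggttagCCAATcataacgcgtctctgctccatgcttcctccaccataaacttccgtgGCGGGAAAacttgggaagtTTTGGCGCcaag
Rfc3: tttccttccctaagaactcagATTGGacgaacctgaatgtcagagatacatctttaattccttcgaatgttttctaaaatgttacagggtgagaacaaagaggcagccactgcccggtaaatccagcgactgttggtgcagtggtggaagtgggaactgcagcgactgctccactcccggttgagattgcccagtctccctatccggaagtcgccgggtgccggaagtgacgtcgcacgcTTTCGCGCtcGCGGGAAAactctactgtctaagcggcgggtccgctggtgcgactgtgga
Pola1: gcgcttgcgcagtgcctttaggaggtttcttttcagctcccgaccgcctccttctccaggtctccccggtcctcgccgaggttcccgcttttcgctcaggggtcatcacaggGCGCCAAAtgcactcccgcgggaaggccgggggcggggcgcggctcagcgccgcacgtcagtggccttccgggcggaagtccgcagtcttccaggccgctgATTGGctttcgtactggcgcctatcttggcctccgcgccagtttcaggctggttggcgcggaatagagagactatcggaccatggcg

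The Pcna window lies at chr2:132253131-132253430 (minus strand) and that of Rrm1 at chr7:102441445-102441744 (plus strand). Mcm6 is at chr1:128359656-128359955 (minus strand), Mcm3 at chr1:20820263-20820562 (minus strand), Rfc3 at chr5:151651159-151651458 (minus strand) and Pola1 at chrX:93632106-93632405 (minus strand). The window of Mcm6 holds 3 E2F words, a pair of which overlap on opposite strands, and those of Mcm3 and Rfc3 hold 2 each. Pcna and Rrm1 hold none of these words. A match is a run of letters and not a measured binding site.

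The values are log2 expression values of the whole islet preparation, so fewer cells of a type and less RNA per cell cannot be told apart. The mean of 8 beta cell markers, among them Ins2, was 10.40 to 10.70 over the 12 arrays. Single markers changed within it at P9.5, with Ucn3 higher in both genotypes (0.60 each) and Nkx6-1 (-0.73) and Mafa (-0.67) lower in Prlr+/+ islets. No probe set carried the symbol Prlr alone, so the level of the receptor is not analysed here. Kdm5d, a gene of the Y chromosome, was at 4.1 to 4.6 in all 12 arrays and serves as a mark for low signal. It is not the lowest such mark, as Uty and Eif2s3y, also of the Y chromosome, were at 3.3 to 3.8 and 3.1 to 3.7. Gins1 was at or under the highest value of Kdm5d in all 12 arrays, Ccne2 in 5 and Pole in 1. Xist, the RNA of the inactive X chromosome, stood at 3.8 in replicate 2 of the Prlr+/+ P9.5 group and at 10 to 10.7 in the other 11 arrays, and results that change without that array are named below. Across probe sets, pairs of arrays from 1 stage had correlations of 0.972 to 0.988 and pairs from different stages 0.931 to 0.969.

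Some of the replication genes were higher at P9.5 in each genotype, where only the pregnant Prlr-/- mice had the pellet. A call needed a fold change of 1.5 or more together with an adjusted p under 0.05 (limma, Benjamini-Hochberg over all 35511 probe sets). In Prlr-/- islets at P9.5, 11 of the 33 members were called higher than in NP islets and 0 lower, where 7.86% of all genes were called higher and 3.06% lower. In Prlr+/+ islets 7 of 33 were called higher and 0 lower, beside 5.86% and 2.19% of all genes. The median log2 fold change of the 33 members was 0.40 in Prlr-/- and 0.23 in Prlr+/+ islets, and that of all genes was -0.07 in each. Without the minimum on fold change, 18 members were higher and 1 lower in Prlr-/- islets, beside 19% and 16.1% of all genes, and 10 were higher and 2 lower in Prlr+/+ islets, beside 13.4% and 9.91%. The arrays of both stages did not overlap for 17 higher and 3 lower members in Prlr-/- islets, beside 23.4% and 21% of all genes, and for 12 higher and 2 lower in Prlr+/+ islets, beside 16.5% and 18.3%.

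**Figure D1:**
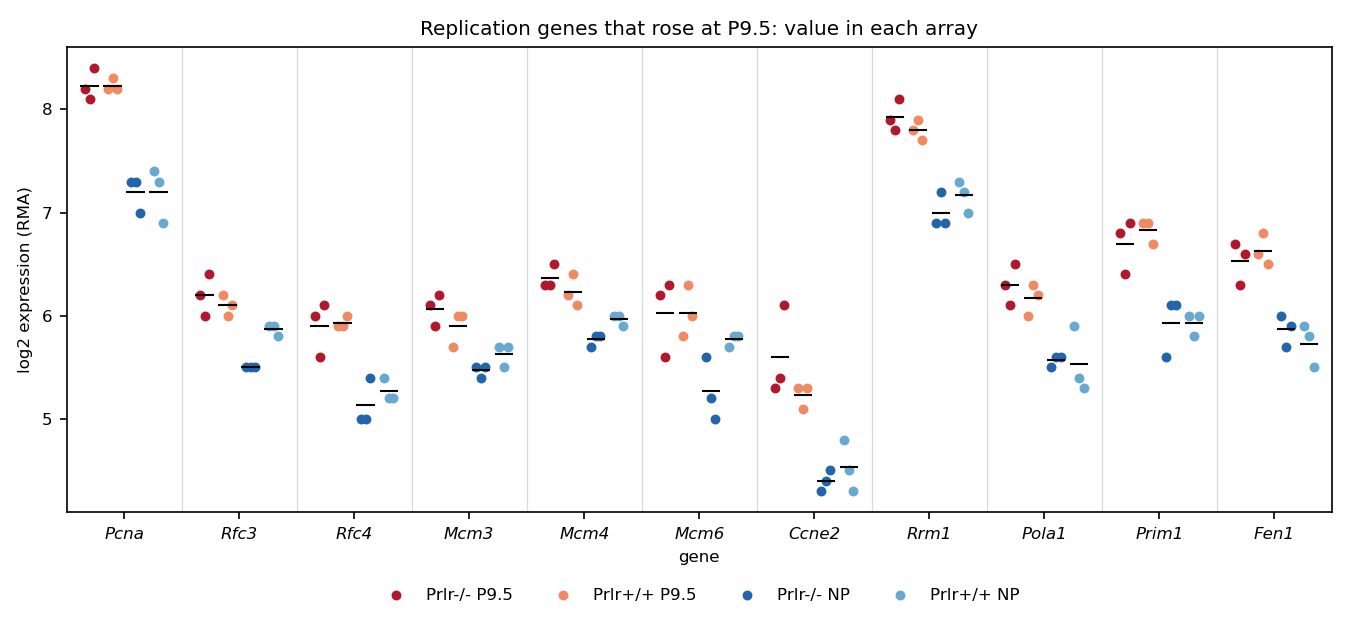
Log2 expression (RMA values, y axis) of the 11 members called higher at P9.5, with 1 point per array, a line at each group mean and 3 arrays per group in the order Prlr-/- P9.5, Prlr+/+ P9.5, Prlr-/- NP and Prlr+/+ NP. For Pcna all 6 pregnant arrays lie at 8.1 to 8.4 and all 6 non-pregnant arrays at 6.9 to 7.4.

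Pcna, the ring that holds polymerases on the template, was at 8.2, 8.1 and 8.4 in Prlr-/- P9.5 islets and at 8.2, 8.3 and 8.2 in Prlr+/+ P9.5 islets. It was at 7.3, 7.3 and 7.0 in Prlr-/- NP islets and at 7.4, 7.3 and 6.9 in Prlr+/+ NP islets. Every pregnant array lay above every non-pregnant one, and within a stage the genotypes overlapped. The rise measured 1.03 on the log2 scale in each genotype (standard error 0.14), with adjusted p = 0.000388 in Prlr-/- and 0.000775 in Prlr+/+ islets. A second Pcna probe set differed from the first by at most 0.1 in any array and gave 1.10 in Prlr-/- and 1.00 in Prlr+/+ islets.

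The clamp is set on DNA by the replication factor C complex, and its small subunits did not move alike. Rfc4 was at 6.0, 5.6 and 6.1 in Prlr-/- P9.5 islets, 5.9, 5.9 and 6.0 in Prlr+/+ P9.5 islets, 5.0, 5.0 and 5.4 in Prlr-/- NP islets and 5.4, 5.2 and 5.2 in Prlr+/+ NP islets. It rose without overlap in both genotypes, by 0.77 on the log2 scale in Prlr-/- (standard error 0.146, adjusted p = 0.00255) and 0.67 in Prlr+/+ islets (adjusted p = 0.00794). Rfc3 was at 6.2, 6.0 and 6.4 in Prlr-/- P9.5 islets, 6.2, 6.0 and 6.1 in Prlr+/+ P9.5 islets, 5.5 in each Prlr-/- NP array and 5.9, 5.9 and 5.8 in Prlr+/+ NP islets. The pregnant groups overlapped, while the Prlr-/- NP arrays lay below all others. Rfc3 rose by 0.70 in Prlr-/- islets (standard error 0.106, adjusted p = 0.000714), and its log2 fold change in Prlr+/+ islets was 0.23 (adjusted p = 0.138). Rfc2, at 0.40 in Prlr-/- islets on the log2 scale (adjusted p = 0.0191), was under the fold change minimum, and Rfc5 was at -0.03.

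Among the 6 subunits of the MCM ring, which unwinds the DNA, 3 were called higher at P9.5 in Prlr-/- islets and 0 in Prlr+/+ islets. Mcm6 was at 6.2, 5.6 and 6.3 in Prlr-/- P9.5 islets, 5.8, 6.3 and 6.0 in Prlr+/+ P9.5 islets, 5.6, 5.2 and 5.0 in Prlr-/- NP islets and 5.7, 5.8 and 5.8 in Prlr+/+ NP islets. The Prlr-/- groups met at 5.6, and the log2 fold change was 0.77 in Prlr-/- (standard error 0.20, adjusted p = 0.0131) and 0.27 in Prlr+/+ islets (adjusted p = 0.367). Mcm4 was at 6.3, 6.3 and 6.5 in Prlr-/- P9.5 islets, 6.2, 6.4 and 6.1 in Prlr+/+ P9.5 islets, 5.7, 5.8 and 5.8 in Prlr-/- NP islets and 6.0, 6.0 and 5.9 in Prlr+/+ NP islets. For Mcm4 the stages did not overlap in either genotype, though in Prlr+/+ islets the nearest arrays were at 6.1 and 6.0. Its log2 fold change was 0.60 in Prlr-/- (standard error 0.101, adjusted p = 0.00127) and 0.27 in Prlr+/+ islets (adjusted p = 0.0792). Mcm3 was at 6.1, 5.9 and 6.2 in Prlr-/- P9.5 islets, 5.7, 6.0 and 6.0 in Prlr+/+ P9.5 islets, 5.5, 5.4 and 5.5 in Prlr-/- NP islets and 5.7, 5.5 and 5.7 in Prlr+/+ NP islets. It rose by 0.60 in Prlr-/- islets (standard error 0.115, adjusted p = 0.00265), and its log2 fold change in Prlr+/+ islets, where the stages touched at 5.7, was 0.27 (adjusted p = 0.118). Mcm2 and Mcm5 had log2 fold changes of 0.40 each in Prlr-/- islets (adjusted p = 0.0121 and 0.0259), and Mcm7 of 0.23.

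Those 3 helicase calls were small and hung on single arrays. Without Prlr-/- P9.5 replicate 3 none of them was called, with log2 fold changes of 0.53 for Mcm3, 0.53 for Mcm4 and 0.63 for Mcm6. Mcm3 also lost its call without replicate 1 of the Prlr-/- P9.5 group (0.58) or replicate 2 of the Prlr-/- NP group (0.57), Mcm4 without Prlr-/- NP replicate 1 (0.57) and Mcm6 without Prlr-/- NP replicate 3 (0.63).

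None of the factors that load and activate the helicase was called. They are Cdc6 and Cdt1, the loaders, and Mcm10, Cdc45 and the 3 GINS subunits. On the log2 scale Cdc45 was at 0.40 in Prlr-/- (adjusted p = 0.0131) and 0.23 in Prlr+/+ islets (adjusted p = 0.132). Gins3 had 0.40 in Prlr-/- (adjusted p = 0.0499) and 0.47 in Prlr+/+ islets (adjusted p = 0.0375), and Gins2 had -0.20 in Prlr-/- (adjusted p = 0.178) and -0.37 in Prlr+/+ islets (adjusted p = 0.0336). All of these were under the fold change minimum. Cdc6, Cdt1 and Mcm10 lay between -0.10 and 0.17 in both genotypes.

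Of the genes that control S-phase entry, Ccne2, a cyclin that activates Cdk2, had the largest fitted change of any member in Prlr-/- islets. It was at 5.3, 5.4 and 6.1 in Prlr-/- P9.5 islets, 5.3, 5.1 and 5.3 in Prlr+/+ P9.5 islets, 4.3, 4.4 and 4.5 in Prlr-/- NP islets and 4.8, 4.5 and 4.3 in Prlr+/+ NP islets. The stages did not overlap in either genotype, and 5 of the 6 non-pregnant arrays were at or under the highest value of Kdm5d, so the changes are differences from a level that was not clear of background and not exact folds. On the log2 scale Ccne2 rose by 1.20 in Prlr-/- (standard error 0.192, adjusted p = 0.000977) and 0.70 in Prlr+/+ islets (adjusted p = 0.0233). Without Prlr-/- P9.5 replicate 3, the highest array, the first value was 0.95 and stayed called. In Prlr+/+ islets Ccne2 was no longer called when replicate 1 (0.67) or 3 (0.67) of the P9.5 group or replicate 2 (0.68) or 3 (0.58) of the NP group was left out. Its paralogue Ccne1 had -0.10 in each genotype. E2f1, a transcription factor of S-phase genes, had -0.10 in Prlr-/- and -0.07 in Prlr+/+ islets.

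Of the 4 genes of nucleotide supply, 1 was called. Rrm1, the large subunit of ribonucleotide reductase, was at 7.9, 7.8 and 8.1 in Prlr-/- P9.5 islets, 7.8, 7.9 and 7.7 in Prlr+/+ P9.5 islets, 6.9, 7.2 and 6.9 in Prlr-/- NP islets and 7.3, 7.2 and 7.0 in Prlr+/+ NP islets. All pregnant arrays were above all non-pregnant arrays, with a rise of 0.93 in Prlr-/- (standard error 0.123, adjusted p = 0.000333) and 0.63 in Prlr+/+ islets (adjusted p = 0.0043). Leaving out replicate 2 of the Prlr+/+ P9.5 group (0.58) or replicate 3 of the Prlr+/+ NP group (0.55) ended the call in Prlr+/+ islets. Rrm2, the small subunit that limits the enzyme in the cell cycle, had 0.20 in Prlr-/- (adjusted p = 0.151) and 0.40 in Prlr+/+ islets (adjusted p = 0.0171).

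Tk1, the cytosolic thymidine kinase, was at 6.4, 6.4 and 6.3 in Prlr-/- P9.5 islets, 6.4, 6.4 and 6.5 in Prlr+/+ P9.5 islets, 6.9 in each Prlr-/- NP array and 6.9, 6.8 and 6.8 in Prlr+/+ NP islets. Every pregnant array was below every non-pregnant one. The log2 fold changes were -0.53 in Prlr-/- (adjusted p = 0.000653) and -0.40 in Prlr+/+ islets (adjusted p = 0.00491), both short of the fold change minimum. A second Tk1 probe set, which differed from this one by up to 1.5 in an array, gave -0.30 in Prlr-/- (adjusted p = 0.163) and -0.23 in Prlr+/+ islets (adjusted p = 0.318). Tyms, thymidylate synthase, had -0.07 in Prlr-/- and -0.10 in Prlr+/+ islets.

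Both enzymes that start strands rose, and neither catalytic subunit that extends them was called. Prim1, the catalytic subunit of primase, was at 6.8, 6.4 and 6.9 in Prlr-/- P9.5 islets, 6.9, 6.9 and 6.7 in Prlr+/+ P9.5 islets, 5.6, 6.1 and 6.1 in Prlr-/- NP islets and 6.0, 5.8 and 6.0 in Prlr+/+ NP islets. The stages stood apart in both genotypes, and Prim1 rose by 0.77 in Prlr-/- (standard error 0.161, adjusted p = 0.0043) and 0.90 in Prlr+/+ islets (adjusted p = 0.00287). Pola1, the catalytic subunit of polymerase alpha, was at 6.3, 6.1 and 6.5 in Prlr-/- P9.5 islets, 6.0, 6.3 and 6.2 in Prlr+/+ P9.5 islets, 5.5, 5.6 and 5.6 in Prlr-/- NP islets and 5.9, 5.4 and 5.3 in Prlr+/+ NP islets. It also kept the stages apart, rising by 0.73 in Prlr-/- (standard error 0.157, adjusted p = 0.0048) and 0.63 in Prlr+/+ islets (adjusted p = 0.0146). Its call in Prlr+/+ islets ended when replicate 2 of the Prlr+/+ P9.5 group (0.57) or replicate 2 (0.57) or 3 (0.52) of the Prlr+/+ NP group was left out, and in a fit of the Prlr+/+ groups alone (0.63, adjusted p = 0.0513). Pold1 of polymerase delta had -0.13 in Prlr-/- (adjusted p = 0.444) and -0.37 in Prlr+/+ islets (adjusted p = 0.0627), and Pole of polymerase epsilon 0.17 in Prlr-/- (adjusted p = 0.336) and -0.20 in Prlr+/+ islets (adjusted p = 0.293).

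On the lagging strand, Fen1, the nuclease that trims Okazaki fragments, was at 6.7, 6.3 and 6.6 in Prlr-/- P9.5 islets, 6.6, 6.8 and 6.5 in Prlr+/+ P9.5 islets, 6.0, 5.7 and 5.9 in Prlr-/- NP islets and 5.9, 5.8 and 5.5 in Prlr+/+ NP islets. Stages did not overlap in either genotype, and Fen1 rose by 0.67 in Prlr-/- (standard error 0.143, adjusted p = 0.00485) and 0.90 in Prlr+/+ islets (adjusted p = 0.00162). Leaving out replicate 1 of the Prlr-/- P9.5 group (0.58) or replicate 2 of the Prlr-/- NP group (0.58) ended the call in Prlr-/- islets. Lig1, the ligase that seals the fragments, had 0.10 in Prlr-/- and 0.07 in Prlr+/+ islets. Rpa1 and Rpa2, which coat single-stranded DNA, had 0.40 and 0.53 in Prlr-/- islets (adjusted p = 0.0216 and 0.00221), and 0.27 and 0.30 in Prlr+/+ islets (adjusted p = 0.123 and 0.0494), all under the fold change minimum.

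**Figure D2:**
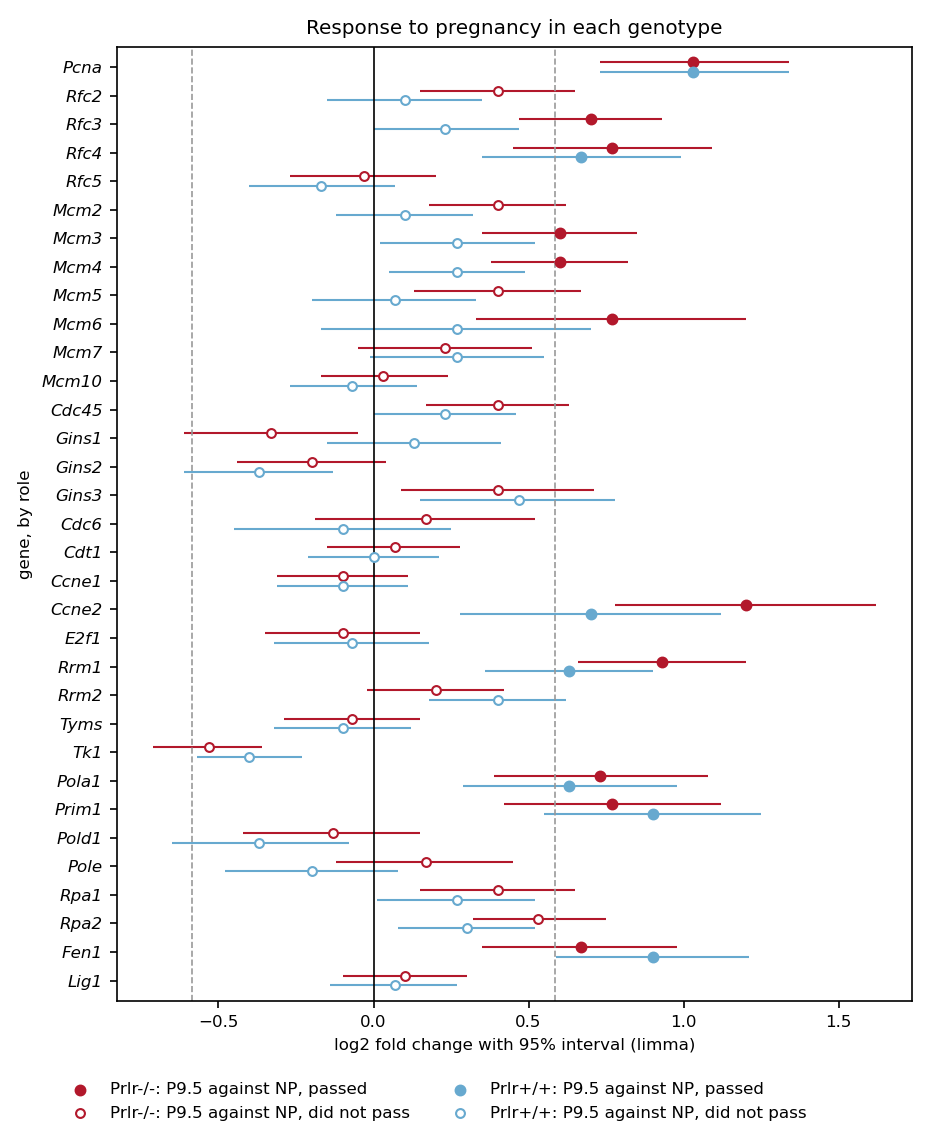
Log2 fold change of P9.5 against NP islets (x axis) with its 95% interval from limma for the 33 members, ordered by role, in Prlr-/- mice (upper symbol of each pair) and Prlr+/+ mice (lower symbol). Filled symbols were called, dashed lines mark a fold change of 1.5 either way, and 11 symbols are filled for Prlr-/- and 7 for Prlr+/+ islets.

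The 7 members called in Prlr+/+ islets (Pcna, Rfc4, Ccne2, Rrm1, Prim1, Pola1 and Fen1) were all among the 11 called in Prlr-/- islets, which makes 100% of the shorter list and 63.6% of the longer one. Rfc3, Mcm3, Mcm4 and Mcm6 were called in Prlr-/- islets alone. The log2 fold change was larger in Prlr-/- islets for 23 members, larger in Prlr+/+ islets for 8 and equal for 2. Of all 19938 genes it was larger in Prlr-/- islets for 9959 and in Prlr+/+ islets for 8740. In both genotypes the mean was higher at P9.5 for 21 members and lower for 7. Across the 33 members the log2 fold changes of the 2 genotypes, which share no array, had a Pearson r of 0.844 and a Spearman rho of 0.844, beside 0.768 and 0.754 across all 19938 genes. Genes are not independent replicates, and these values are given as a description.

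A difference of response between genotypes was not detected by the test of the difference itself. In the interaction of pregnancy and genotype, 0 members were called by limma in either direction, beside 0% of all genes higher and 0.105% lower. At an unadjusted p under 0.05 there were 2 members with a larger response in Prlr-/- islets and 1 with a smaller one, beside 5.43% and 3.86% of all genes. They were Rfc3, with a difference in log2 fold change of 0.47 (95% interval 0.14 to 0.80, adjusted p = 0.34), Mcm4 with 0.33 (adjusted p = 0.473) and Gins1 with -0.47 (adjusted p = 0.43). Gins1 was at or under the highest value of Kdm5d in every array. Ccne2 and Mcm6 each differed by 0.50, with 95% intervals of -0.09 to 1.09 (adjusted p = 0.581) and -0.12 to 1.12 (adjusted p = 0.594). For Pcna the difference was 0, with an interval of -0.43 to 0.43. The interaction and the comparisons between genotypes use the same arrays as the pregnancy comparisons.

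At P9.5 itself, no member was called by limma in Prlr-/- against Prlr+/+ islets, beside 0.0251% of all genes higher and 0.301% lower, and 0 members had an unadjusted p under 0.05, beside 3.32% and 2.61%. The groups overlapped for all 33 members, where 3.86% of all genes lay wholly higher and 2.95% wholly lower. The largest differences were log2 fold changes of 0.37 for Ccne2 (95% interval -0.05 to 0.79), -0.20 for Gins1 and 0.17 for Cdc45, with adjusted p = 0.977 each, and Mcm3, Cdc6, Rfc5 and Pole were also at 0.17. Cdc45 was at 6.3, 6.3 and 6.5 in Prlr-/- P9.5 islets and at 6.3, 6.2 and 6.1 in Prlr+/+ P9.5 islets. Gins1, at or under the highest value of Kdm5d, was at 4.2, 4.2 and 3.9 in Prlr-/- P9.5 islets and at 4.3, 4.1 and 4.5 in Prlr+/+ P9.5 islets. Both pairs of groups overlapped. For Pcna the difference was 0, with an interval of -0.31 to 0.31, and for Mcm6 it was 0 with an interval of -0.44 to 0.44. The median over the members was 0.10, beside 0 for all genes.

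In non-pregnant islets 0 members were called by limma in either direction in Prlr-/- against Prlr+/+ mice, beside 0.00502% of all genes higher and 0% lower. At an unadjusted p under 0.05, 5 members were lower and 0 higher in Prlr-/- islets, beside 6.47% and 4.42% of all genes. They were Mcm2, Mcm5, Mcm6, Rfc2 and Rfc3. Mcm2 was at 6.5, 6.3 and 6.3 in Prlr-/- NP islets and at 6.9, 6.7 and 6.8 in Prlr+/+ NP islets, so that the groups did not overlap, with a log2 fold change of -0.43 (95% interval -0.66 to -0.21, adjusted p = 0.146). Mcm6 had -0.50 (adjusted p = 0.338), Rfc3 -0.37 (adjusted p = 0.217), Mcm5 -0.30 (adjusted p = 0.344) and Rfc2 -0.27 (adjusted p = 0.362). Together with Mcm4 these were the 6 members that lay wholly lower in Prlr-/- NP islets, beside 6.82% of all genes, and Gins1 lay wholly higher, beside 4.94%. The median over the members was -0.07, beside 0 for all genes. Endothelial markers, genes of vessel cells, also lay lower in Prlr-/- NP islets. Their mean over the 8 genes was 7.63 to 7.70, against 7.86 to 8.01 in Prlr+/+ NP islets, with 0 of 8 called and 5 of 8 wholly lower. Other cell types differed as well, with 0 markers called. Of 9 acinar markers 8 had log2 fold changes above 0 (median 0.53), and all 7 stromal markers had log2 fold changes below 0 (median -0.30). The part of these cells in the result was not tested.

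**Figure D3:**
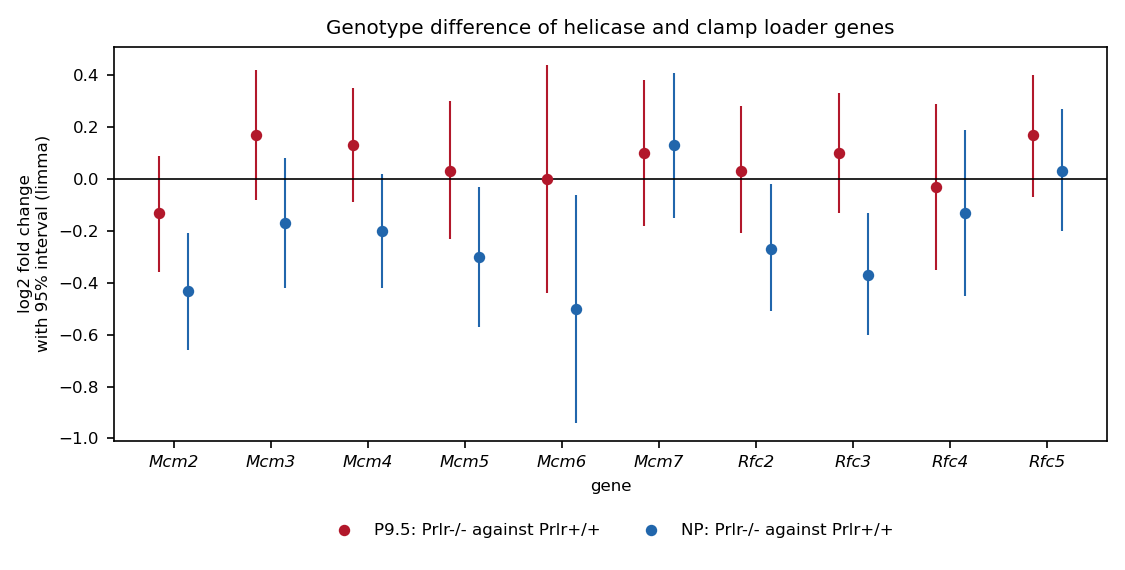
Log2 fold change of Prlr-/- against Prlr+/+ islets (y axis) with its 95% interval from limma for the 6 MCM helicase and 4 clamp loader genes, at P9.5 (left symbol of each pair) and in NP islets (right symbol). At P9.5 every interval spans 0, and in NP islets those of Mcm2, Mcm5, Mcm6, Rfc2 and Rfc3 lie below 0, while none was called.

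**Figure D4:**
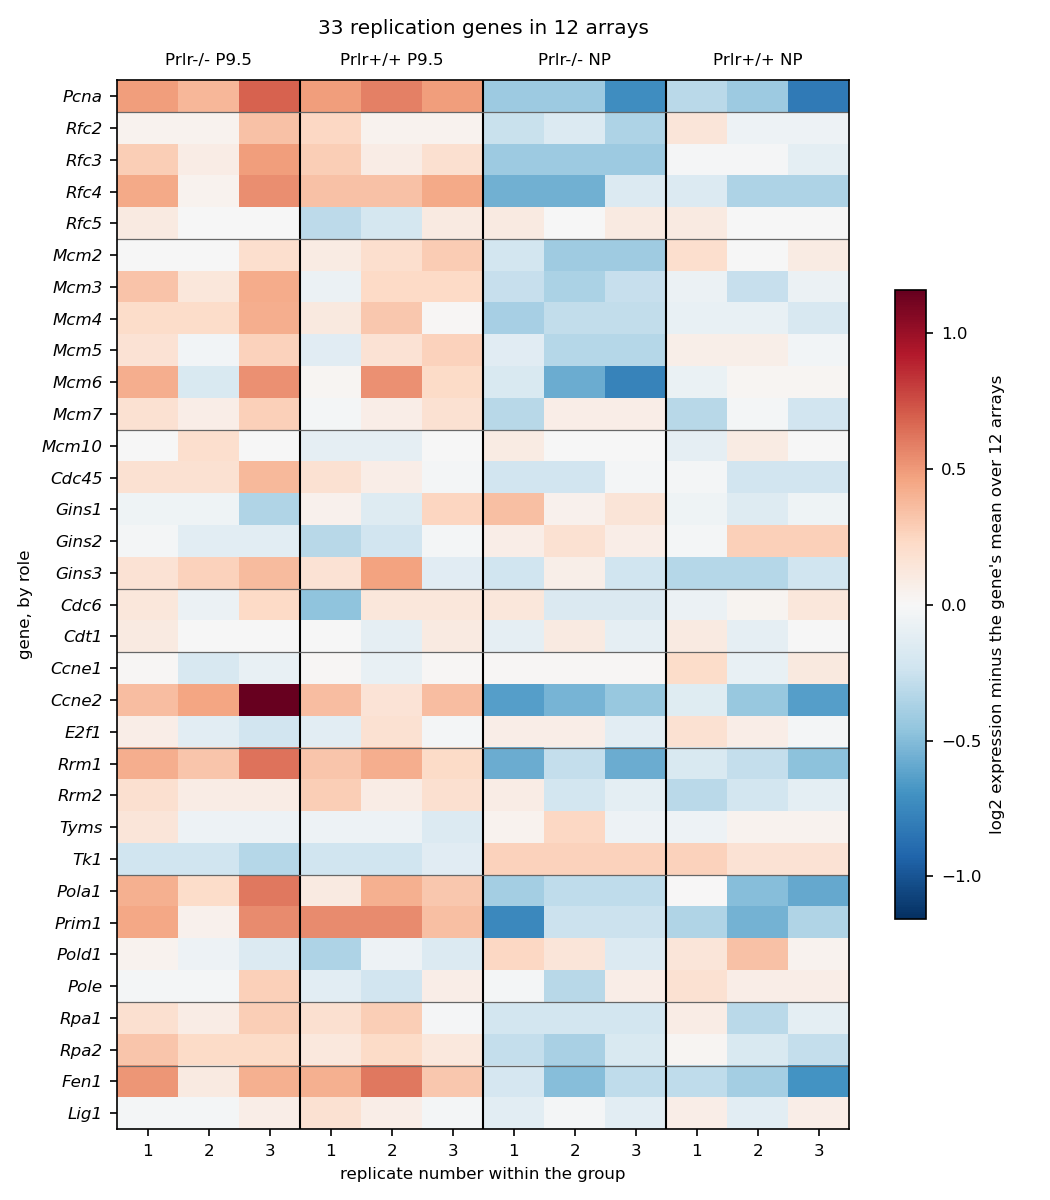
Log2 expression of each of the 33 members (rows, by role) in each of the 12 arrays (columns, in the 4 groups by replicate number), shown as the difference from the gene's mean over the 12 arrays. Pcna, Rfc3, Rfc4, Mcm4, Ccne2, Rrm1, Prim1 and Fen1 are above their mean in all 6 pregnant arrays and below it in all 6 non-pregnant arrays. Tk1 has the opposite pattern in the probe set shown, while in its second probe set the stages overlapped in both genotypes.

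Taken over the 33 members, the mean log2 level was 6.40, 6.28 and 6.46 in Prlr-/- P9.5 islets, 6.28, 6.36 and 6.34 in Prlr+/+ P9.5 islets, 6.05, 6.04 and 6.02 in Prlr-/- NP islets and 6.18, 6.10 and 6.08 in Prlr+/+ NP islets. Each pregnant array lay above each non-pregnant one. Prlr-/- P9.5 replicate 3 was the highest array of its group, standing alone, for 20 of the 33 members and replicate 2 the lowest alone for 14. Among the Prlr+/+ NP arrays replicate 1 was alone highest for 17.

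Other genes of DNA replication, 52 on the list, were tested in the same fit. In Prlr-/- islets 14 of 52 were called higher at P9.5 and 0 lower (median log2 fold change 0.33), where 7.86% of all genes were called higher. In Prlr+/+ islets 4 of 52 were called higher and 0 lower (median 0.20), a share near the 5.86% of all genes. Tipin, a fork protection factor, rose by 0.90 in both Prlr-/- (adjusted p = 0.00238) and Prlr+/+ islets (adjusted p = 0.00369). Orc4 of the origin recognition complex rose by 0.87 in Prlr-/- (adjusted p = 0.000778) and 0.80 in Prlr+/+ islets (adjusted p = 0.00206), and Chek1, the kinase that guards replication forks, by 1.07 in Prlr-/- (adjusted p = 0.0048) and 0.90 in Prlr+/+ islets (adjusted p = 0.0162). Hells, a chromatin remodeller, rose by 1.10 in Prlr-/- islets (adjusted p = 0.0031). Its difference of response between genotypes, 0.60 in the interaction, was not called (adjusted p = 0.553). None of the 52 was called between genotypes at either stage by limma. Of all genes, 0.0251% were called higher and 0.301% lower in Prlr-/- P9.5 islets, and 0.00502% and 0% in Prlr-/- NP islets. At an unadjusted p under 0.05, 2 of the 52 were higher and 0 lower in Prlr-/- P9.5 islets, beside 3.32% and 2.61% of all genes. In Prlr-/- NP islets 2 were higher and 6 lower, beside 4.42% and 6.47%.

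Of 24 genes of mitosis, the stage that follows S phase and G2, 6 were called higher at P9.5 in Prlr-/- islets (median log2 fold change 0.32) and 1 in Prlr+/+ islets (median 0.17), beside 7.86% of all genes in Prlr-/- and 5.86% in Prlr+/+ islets. Mad2l1 of the spindle checkpoint rose by 1.23 in Prlr-/- (adjusted p = 0.00018) and 0.93 in Prlr+/+ islets (adjusted p = 0.00139). Top2a, the topoisomerase that untangles sister chromatids, rose by 1.43 in Prlr-/- islets (adjusted p = 0.00478), and its value in Prlr+/+ islets was 0.63 (adjusted p = 0.161). The mean over the 24 genes was 5.31, 5.56 and 5.94 in Prlr-/- P9.5 islets, 5.30, 5.36 and 5.55 in Prlr+/+ P9.5 islets, 5.22, 5.13 and 5.19 in Prlr-/- NP islets and 5.18, 5.29 and 5.12 in Prlr+/+ NP islets. The highest array was Prlr-/- P9.5 replicate 3, which was also highest for the 33 replication genes. Of 15 regulators of G1, 1 was called higher and 0 lower in Prlr-/- islets, and 1 higher and 1 lower in Prlr+/+ islets. Of all genes, 7.86% were called higher and 3.06% lower in Prlr-/- islets, and 5.86% and 2.19% in Prlr+/+ islets. Myc, a transcription factor of growth, was the 1 of these 15 called between genotypes at P9.5, beside 0.301% of all genes called lower. Its mean was 6.0 in Prlr-/- and 7.53 in Prlr+/+ islets (log2 fold change -1.53, adjusted p = 0.0117).

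**Figure D5:**
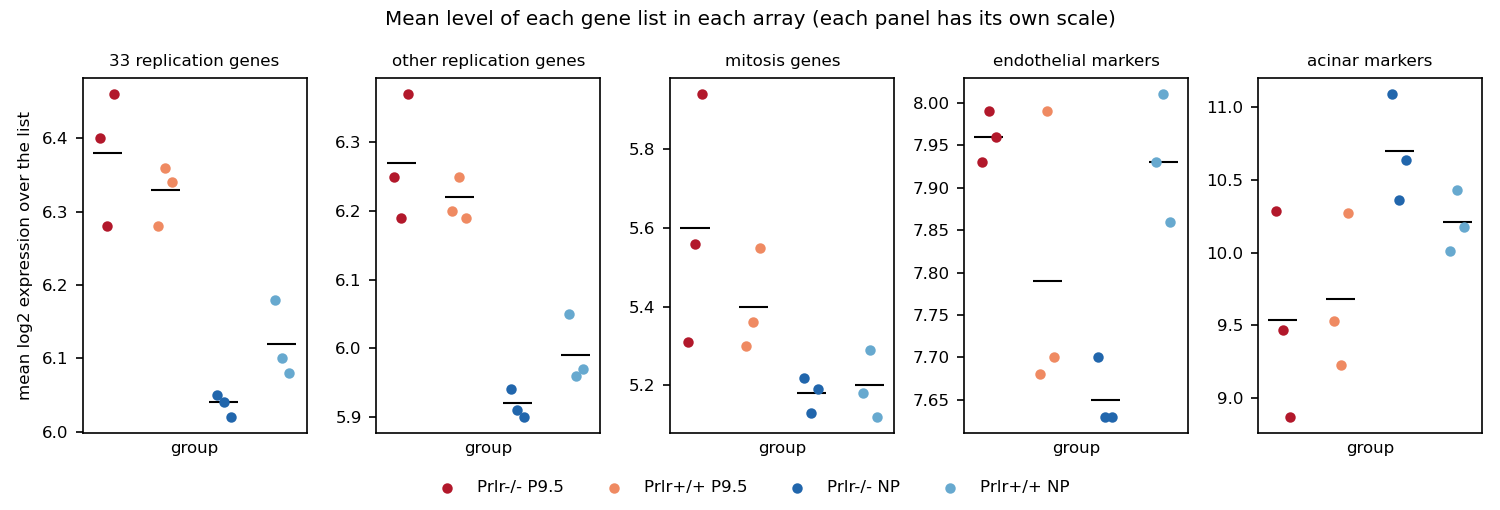
Mean log2 expression over the genes of each list (y axis, each panel with its own scale) in each of the 12 arrays, with a line at the mean of each group of 3 arrays, in the order Prlr-/- P9.5, Prlr+/+ P9.5, Prlr-/- NP and Prlr+/+ NP. The means of the 33 members lie at 6.28 to 6.46 in pregnant and 6.02 to 6.18 in non-pregnant arrays, and acinar markers range from 8.87 to 11.09.

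Some markers of other cells of the pancreas also differed between the stages, and not alike in both genotypes. The shares of all genes called at P9.5 were 7.86% higher and 3.06% lower in Prlr-/- islets, and 5.86% and 2.19% in Prlr+/+ islets. Of 9 markers of acinar cells, which make digestive enzymes, 7 were called lower in Prlr-/- P9.5 than in Prlr-/- NP islets, with means over the list of 10.29, 9.47 and 8.87 in Prlr-/- P9.5 and 11.09, 10.36 and 10.64 in Prlr-/- NP islets. In Prlr+/+ mice 0 of 9 were called and 8 of 9 had log2 fold changes below 0 (median -0.53), with means of 9.53, 9.23 and 10.27 at P9.5 and 10.01, 10.43 and 10.18 in NP islets. Of 8 endothelial markers, 2 were called higher in Prlr-/- islets at P9.5 (means 7.93 to 7.99 in P9.5 and 7.63 to 7.70 in NP islets), and 2 were called lower in Prlr+/+ islets (means 7.68 to 7.99 in P9.5 and 7.86 to 8.01 in NP islets). Of 8 immune markers, 0 were called in either genotype, with means of 5.29 to 5.60 over the 12 arrays. All 4 ductal markers had log2 fold changes below 0 in both genotypes, with means of 6.28 to 6.35 in Prlr-/- P9.5 against 6.45 to 6.68 in Prlr-/- NP islets and of 6.08 to 6.15 in Prlr+/+ P9.5 against 6.43 to 6.50 in Prlr+/+ NP islets. Only the keratin gene Krt7 among them was called, lower in Prlr+/+ P9.5 islets (-0.80, adjusted p = 0.00335). Of 7 stromal markers 0 were called in either genotype. By the adjusted p without the fold change minimum, 2 were lower in Prlr+/+ islets, beside 9.91% of all genes. The part of these cells in the rise of the replication genes was not tested.

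The count of called members moved with single arrays. In Prlr-/- islets it lay between 8 and 11 when each array was left out in turn, with 8 without Prlr-/- P9.5 replicate 3. In Prlr+/+ islets it lay between 4 and 7, with 4 without Prlr+/+ NP replicate 3 and 5 without Prlr+/+ P9.5 replicate 2, the array with low Xist. Whichever array was left out, Pcna, Rfc4 and Prim1 kept their calls in both genotypes, Ccne2, Rrm1, Rfc3 and Pola1 in Prlr-/- islets and Fen1 in Prlr+/+ islets.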

How the data were processed

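RNA of mouse islets was hybridised to Affymetrix MoGene_1.0_ST arrays. Robust multichip analysis in aroma.affymetrix (background correction, quantile normalization and 1 value per probe set) was run by the authors, and the deposited log2 values are rounded to steps of 0.1, so any effect of those steps is part of every value. All 35511 probe sets on 12 arrays were used, with array medians of 5.7 to 5.9. Of these, 21789 carry 1 gene symbol in the platform annotation, 1621 several and 12101 none, and 31 members have 1 probe set alone. Genes are named only from probe sets with 1 symbol.

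One model with 4 group means was fitted to all probe sets in R 4.3.3 with limma 3.58.1 (lmFit, contrasts.fit, eBayes, 8 residual degrees of freedom before moderation), after a test on simulated data. Benjamini-Hochberg adjustment ran over all probe sets. The number of arrays limits the precision, and exact permutation of 3 arrays against 3 gives no p below 0.1. The p-values set each difference against the spread between replicate arrays, pooled over the 4 groups and moderated over all probe sets. Whether that spread is one between single mice is not known.

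The members and lists were chosen with earlier results of these data known. The rule was to give array values for called members and for the 3 members with the largest change per comparison, and to name from other lists at most 6 called genes by size and the 2 with the largest change. The remaining members named, among them Tk1, were named after their values were seen, as were the E2F-bearing windows printed. Promoter windows are from RefSeq and 1 was used per gene. Alternatives were a fit of the 2 groups compared, a replicate block, each array left out, a filter on the dimmest 40% of probe sets, median centring, quantile normalization, a trended robust prior, array weights, the mean of a gene's probe sets, other fold change minimums and, added after the data were seen, the other probe set of Pcna and Tk1.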

Additional observations from a re-analysis of the deposited data

How the results depend on the processing

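With no fold change minimum, 18 members were higher and 1 lower in Prlr-/- islets at P9.5 and 2 lower in Prlr+/+ islets. With a minimum of 2, 2 members (Pcna and Ccne2) were higher in Prlr-/- and 1 (Pcna) in Prlr+/+ islets. Leaving out each array in turn gave 8 to 11 higher members in Prlr-/- and 4 to 7 in Prlr+/+ islets, with 4 without Prlr+/+ NP replicate 3, while 0 members were lower in pregnancy or called between genotypes or in the interaction each time. The interaction of Pola1 turned to -0.08 without Prlr+/+ NP replicate 1, against 0.10 with all arrays and up to 0.22 with another array left out, and was never called.

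Neither the labels nor the methods say whether the replicate numbers pair the arrays. Deviations of same-numbered arrays correlated at over 0.1 in 7 of 18 pairs (-0.114 to 0.227). Only 1 of 12 arrays lay nearest to arrays of its number in the other groups. These values neither show nor exclude a pairing or a shared batch, as correlations of both signs occurred and each group has few arrays. With the replicate number as a block, 11 members were higher in Prlr-/- and 7 in Prlr+/+ islets, as without it.

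Median centring moved log2 fold changes by 0.17 in the Prlr-/- and 0.07 in the Prlr+/+ pregnancy comparison, by -0.1 between NP genotypes and by 0.1 in the interaction. It gave 12 and 7 higher members and quantile normalization 12 and 6, in Prlr-/- and Prlr+/+ islets. Of the values of single members and the group means over the members, under all alternatives, 1296 stayed the same in direction and call, or for the means within 1 SD. Another 21 were no longer called and 1, the interaction of Pola1, turned in direction. The remaining 5 were group means that moved by more than 1 SD. With median centring, Prlr-/- NP islets were at 5.94 against 6.04 and Prlr+/+ P9.5 islets at 6.39 against 6.33. Leaving out the dimmest 40% of probe sets removed Ccne2, Gins1 and Pole and gave 10 and 6. Low signal thus limits what can be said of these 3 genes.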
